A study of Ziziphus jujuba with 15 samples.

Results

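The 4 genes described here belong to the ubiquitin pathway and were followed through heat stress in leaves of the jujube cultivar ‘HS’, a heat-sensitive *Ziziphus jujuba*. They were picked by identifier, as 4 of 32876 genes in the expression table, from those that the study placed among its ubiquitin-protein ligase genes. All 4 were found in the table, and all 4 passed the filter on low values in every fit. By their annotation 3 of the 4 are ligases, namely gene16809 (LOC107424969, E3 ubiquitin-protein ligase FANCL), gene6121 (LOC107413313, E3 ubiquitin-protein ligase RHA2A) and gene12473 (LOC107420280, probable E3 ubiquitin-protein ligase ARI1). The remaining gene, gene12121 (LOC107419944), is annotated as ubiquitin carboxyl-terminal hydrolase 22, UBP22. The heading of ligases is therefore not used for the set below.

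The study asked how leaf transcripts change when jujube seedlings are exposed to heat, in a heat-resistant and a heat-sensitive cultivar. The heat-sensitive cultivar was analysed here. Seedlings of ‘HS’, raised from stem cuttings with days of 30 °C and nights of 20 °C, were exposed to 45 °C. By the methods of the study this heat ran from morning to late evening and not through the night. Leaf RNA was sequenced at 5 time points in 3 replicates named a, b and c. The group at 0 d was the untreated control, and the groups at 1, 3, 5 and 7 d had received that number of days of heat, so that all 15 libraries shared cultivar, tissue and growth conditions and differed by the length of treatment. The methods of the study describe the times up to 5 d, and the libraries at 7 d are known from the labels alone. No untreated plants of the later days were among the libraries, so days of heat and days of age cannot be told apart.

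Ubiquitin is a small protein that is joined to other proteins in a relay: an activating enzyme (E1) passes it to a conjugating enzyme (E2), and a ligase (E3) selects the substrate and directs the transfer. Chains of ubiquitin send many substrates to the proteasome for degradation, single ubiquitins alter the activity of others, and deubiquitinases remove the tag. In plants under heat this system is known for clearing damaged proteins and for setting the lifetime of transcription factors of the stress response.

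The genes thus stand at the last step of the relay and at its reversal. FANCL is known from human cells as the RING-type ligase of the Fanconi anemia complex, which adds single ubiquitins to a protein of DNA repair. RHA2A is in Arabidopsis a RING-H2 ligase that promotes abscisic acid signalling, and ARI1 belongs to the ARIADNE family of RING-between-RING ligases. UBP22 is in Arabidopsis a deubiquitinase that removes ubiquitin from histone H2B. RHA2A was also chosen by the study for qPCR, and its primer pair is shown as the study lists it. The primers were not matched to any transcript sequence here.
RHA2A forward primer: tctgtctctgcacgctcaag
RHA2A reverse primer: cggaaaaccaagcaacgagg
Each primer has 20 bases, 55% of them G or C, and no letter is set in capitals because no part of a primer is singled out.

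Expression was given as FPKM, a fragment number scaled to transcript length and to the mapped fragments of the library, which can be compared between genes as a level per length. Fragment counts were not given, so that no counting interval could be set on a value, and only relative depth could be worked out, by the spacing of the lowest FPKM values. It ranged from 0.901 to 1.31 times that of replicate a at 0 d. Leaf tissue was checked with 12 genes of the light-harvesting antenna, all of them above 0 in every library. Their summed FPKM ranged from 9393 to 17225 at 0 d, from 25918 to 26377 at 1 d, from 12132 to 17739 at 3 d, from 11897 to 16178 at 5 d and from 23334 to 29205 at 7 d, and the part of these shifts in the results below was not tested. In whole leaves, fewer cells of a type and less RNA per cell cannot be told apart. The heat shock gene HSP83 (gene21597) rose from 0.452 ± 0.147 FPKM at 0 d (SD, n = 3) to 58.7 ± 16.1 at 1 d, 95.6 ± 11.7 at 3 d and 120 ± 9.16 at 5 d. At 7 d it was split between the libraries, with 271 FPKM in replicate a, 34.0 in b and 31.0 in c. Replicate a at 7 d stood apart over all genes too: on log2(FPKM + 1) it correlated at 0.906 and 0.909 with the other libraries of 7 d and at 0.926 to 0.934 with those of 5 d, and b and c correlated at 0.966. The comparisons of the 4 genes with 7 d are therefore also given without this library, as are those of the gene lists between 0 d and 7 d, the latter chosen after seeing the data. Pairs were uneven on other days too, with r from 0.943 to 0.969 at 0 d and 1 d, 0.927 to 0.966 at 3 d and 0.936 to 0.966 at 5 d. The labels number b and c consecutively on every day, with a apart. Calls over all genes rose without replicate a and fell without b or c, as given at the end. Whether b and c are replicates of the same kind as a was not tested.

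Of the 4 genes, FANCL and RHA2A rose at every time point of heat, ARI1 was highest at 5 d without reaching a 2-fold change, and UBP22 was not called at any time. A gene was called changed when limma, fitted across all genes on log2(FPKM + 1), gave a fold change of at least 2 with a p of at most 0.01 after Benjamini-Hochberg adjustment. At 1 d 2 of the 4 were called, both higher, where 10.9% of the 19550 genes tested were called, 4.81% higher and 6.12% lower. At 3 d 2 were called, both higher, against 14.7% of genes in either direction, 7.95% higher and 6.78% lower. At 5 d 2 were called higher, against 18.9% of genes in either direction, 9.57% higher and 9.30% lower, and at 7 d 2 were called higher, against 9.01% of 19925 genes in either direction, 4.14% higher and 4.88% lower. These comparisons share the libraries of 0 d. Without the libraries of replicate a FANCL and RHA2A were called at 1, 3 and 5 d and FANCL alone at 7 d. Without the libraries of replicate b none of the 4 was called at 1, 3 or 7 d, and without those of replicate c FANCL alone was still called at 3 d and none at 1 d or 7 d, while at 5 d both FANCL and RHA2A were called each time. The study had named the genes after calls that used the libraries of 0 to 5 d, so the calls at 1, 3 and 5 d are not independent of the choice. Those at 7 d are not fully so either, because they use the same libraries of 0 d. The study described these genes by cultivar, as more highly expressed in the heat-resistant ‘HR’ than in ‘HS’ at its later time points. That difference between cultivars was not tested here, because libraries of ‘HS’ alone were analysed.

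**Figure D1:**
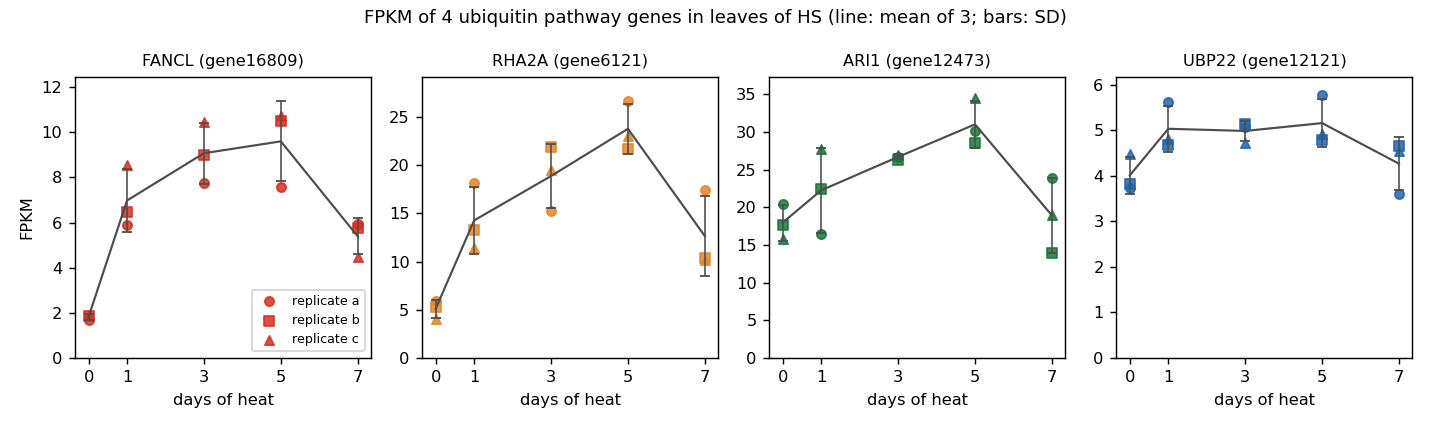
FPKM (vertical axis, one scale per gene, from 0) against days of heat for FANCL, RHA2A, ARI1 and UBP22. Points are single libraries (circle a, square b, triangle c), the line joins the means and bars are SD of 3. FANCL and RHA2A lie above their 0 d libraries throughout and have their highest means at 5 d.

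FANCL, the first of the ligases, was the gene with the lowest level at 0 d and the one with the largest log2 fold change of the 4 at 1, 3 and 7 d. Its FPKM at 0 d was 1.67, 1.87 and 1.91, above 19.2% of the genes tested. At 1 d the values were 5.89, 6.47 and 8.57, and at 3 d 7.76, 9.01 and 10.5. At 5 d they were 7.56, 10.5 and 10.7, and at 7 d 5.94, 5.75 and 4.47. The lowest heated library, at 4.47 FPKM, was above the highest of 0 d, at 1.91, and at 5 d the gene stood above 53.3% of genes. Its mean rose from 1.81 ± 0.128 FPKM to 6.98 ± 1.41, 9.08 ± 1.35 and 9.60 ± 1.77 at 1, 3 and 5 d, and was 5.39 ± 0.799 at 7 d (SD, n = 3), which is 3.85, 5.00, 5.29 and 2.97 times the mean at 0 d. Adding 1 before taking logs makes the change of a low gene look smaller. The log2 fold changes so obtained were 1.49 at 1 d (SE 0.175, adjusted p = 0.000156, limma), 1.83 at 3 d (adjusted p = 3.29e-05), 1.90 at 5 d (adjusted p = 1.75e-05) and 1.18 at 7 d (SE 0.175, adjusted p = 0.000385). FANCL was called at all 4 time points.

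RHA2A, the abscisic acid related ligase of Arabidopsis, followed a similar course at higher levels. Its FPKM at 0 d was 5.93, 5.29 and 4.05 in replicates a, b and c. At 1 d the values were 18.2, 13.3 and 11.4, and at 3 d 15.3, 21.9 and 19.5. At 5 d they were 26.7, 21.7 and 23.1, and at 7 d 17.5, 10.3 and 10.1. No heated library overlapped those of 0 d, and the libraries of 5 d were the highest of the course apart from replicate b at 3 d, which lay between them. Mean FPKM was 5.09 ± 0.955, 14.3 ± 3.53, 18.9 ± 3.37, 23.8 ± 2.57 and 12.7 ± 4.18 at 0, 1, 3, 5 and 7 d (SD, n = 3). The log2 fold change against 0 d was 1.31 at 1 d (SE 0.192, adjusted p = 0.000536, limma), 1.71 at 3 d (adjusted p = 8.66e-05) and 2.03 at 5 d (SE 0.192, adjusted p = 2.08e-05). At 5 d the gene had moved from above 39.5% to above 76.5% of the genes tested.

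At 7 d the call of RHA2A rested on single libraries. The log2 fold change against 0 d was 1.14 (SE 0.224, adjusted p = 0.00219, limma), and RHA2A was higher in 3 of 3 replicates. Without replicate a of 7 d, the library with the high HSP83, it was 0.90 (adjusted p = 0.00669), under 2-fold. Without replicate c of 0 d it was 1.01 with an adjusted p of 0.0121, and in a fit of the 6 libraries of 0 d and 7 d alone the adjusted p was 0.0213. FANCL was still called at 7 d after any 1 library of 0 d or 7 d was left out, at 1.11 (adjusted p = 0.00154) without replicate a of 7 d.

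ARI1, the RING-between-RING ligase, was well expressed before heat and shifted less. Its FPKM at 0 d was 20.5, 17.7 and 15.7, above 71.0% of the genes tested. At 1 d the values were 16.5, 22.5 and 27.8, and at 3 d 26.7, 26.3 and 26.996. At 5 d they were 30.1, 28.5 and 34.5, and at 7 d 23.8, 13.95 and 18.9. The groups of 3 d and 5 d lay above all libraries of 0 d, while those of 1 d and 7 d overlapped with 0 d. The log2 fold change was 0.55 at 3 d (SE 0.167, adjusted p = 0.0208, limma) and 0.76 at 5 d (SE 0.167, adjusted p = 0.00355), a mean FPKM 1.73 times that of 0 d, so that at 5 d the gene passed on p and not on fold change. At 5 d 34.8% of all genes passed on p alone, and of the 4 genes 3 did. At 1 d the log2 fold change was 0.27 (adjusted p = 0.231) with replicate a lower and b and c higher than at 0 d, and at 7 d it was 0.05 (SE 0.196, adjusted p = 0.878) and -0.13 without replicate a of 7 d.

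UBP22, the deubiquitinase, kept within a narrow range. Its FPKM at 0 d was 3.74, 3.82 and 4.47, and at 1 d 5.62, 4.69 and 4.80. At 3 d the values were 5.08, 5.15 and 4.73, and at 5 d 5.77, 4.79 and 4.92. At 7 d they were 3.60, 4.66 and 4.54. The libraries of 1, 3 and 5 d were all above those of 0 d, by a small step, and those of 7 d overlapped with 0 d. The means lay between 4.01 ± 0.401 at 0 d and 5.16 ± 0.532 at 5 d (SD, n = 3). None of the changes passed the test: the log2 fold changes were 0.27 at 1 d (SE 0.126, adjusted p = 0.122, limma), 0.26 at 3 d (adjusted p = 0.120), 0.30 at 5 d (adjusted p = 0.0733) and 0.07 at 7 d (SE 0.132, adjusted p = 0.723). Without replicate a of 7 d the last of these was 0.16 (adjusted p = 0.381).

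**Figure D2:**
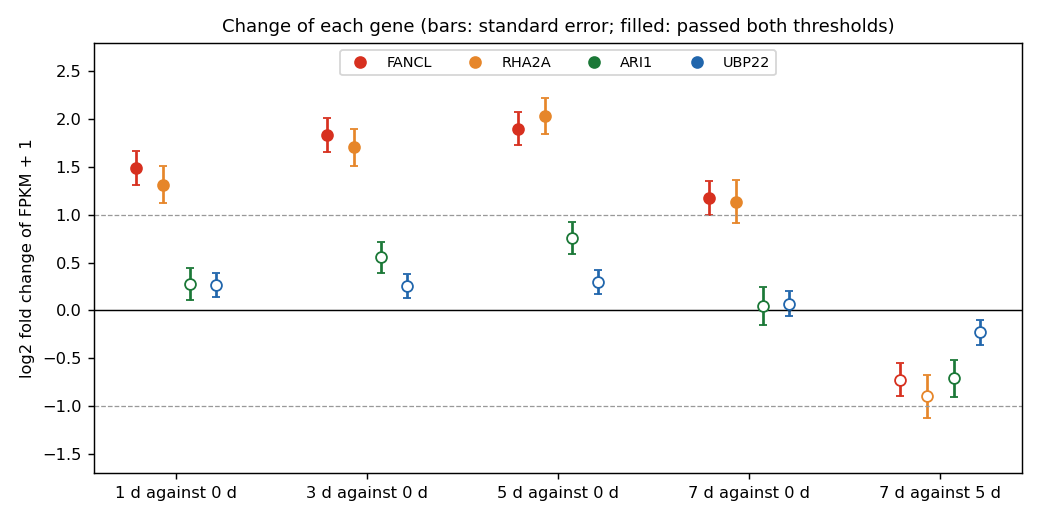
Log2 fold change of FPKM + 1 (vertical axis) for each gene in the comparisons with 0 d and in 7 d against 5 d, with bars of 1 standard error from limma. Filled points passed the threshold on adjusted p and on fold change (dashed lines mark 2-fold), and FANCL and RHA2A are filled at every time against 0 d.

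Between successive time points of heat the genes moved less. None of the 4 was called in limma between 1 d and 3 d, where 0.240% of genes were called (0.133% higher, 0.107% lower), or between 3 d and 5 d, where 0.363% were (0.225% higher, 0.138% lower). At an unadjusted p under 0.05 the count was 0 of 4 in both steps, against 21.3% and 17.4% of all genes. Between 5 d and 7 d none was called either, where 0.683% of genes were (0.386% higher, 0.296% lower). In that step 3 of 4 had an unadjusted p under 0.05, against 27.5% of all genes, and these were the 3 ligases.

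All 4 genes were lower at 7 d than at 5 d in 3 of 3 replicates, with no overlap of the groups. The share of all genes with that pattern was not worked out, so this count has no background to be read against. For the ligases the log2 fold change was -0.72 for FANCL (SE 0.175, adjusted p = 0.0287, limma), -0.90 for RHA2A (SE 0.224, adjusted p = 0.0318) and -0.71 for ARI1 (SE 0.196, adjusted p = 0.0438), each short of both thresholds. The median over all genes was -0.08. Without replicate a of 7 d, RHA2A was called lower, at -1.14 (adjusted p = 0.00348), in a fit that called 4.87% of genes in either direction, while FANCL was at -0.79 (adjusted p = 0.0169) and ARI1 at -0.89 (adjusted p = 0.00983), both under 2-fold. UBP22 differed by -0.23 (SE 0.132, adjusted p = 0.287) in the fit of all libraries and by -0.13 (adjusted p = 0.532) without that library.

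**Figure D3:**
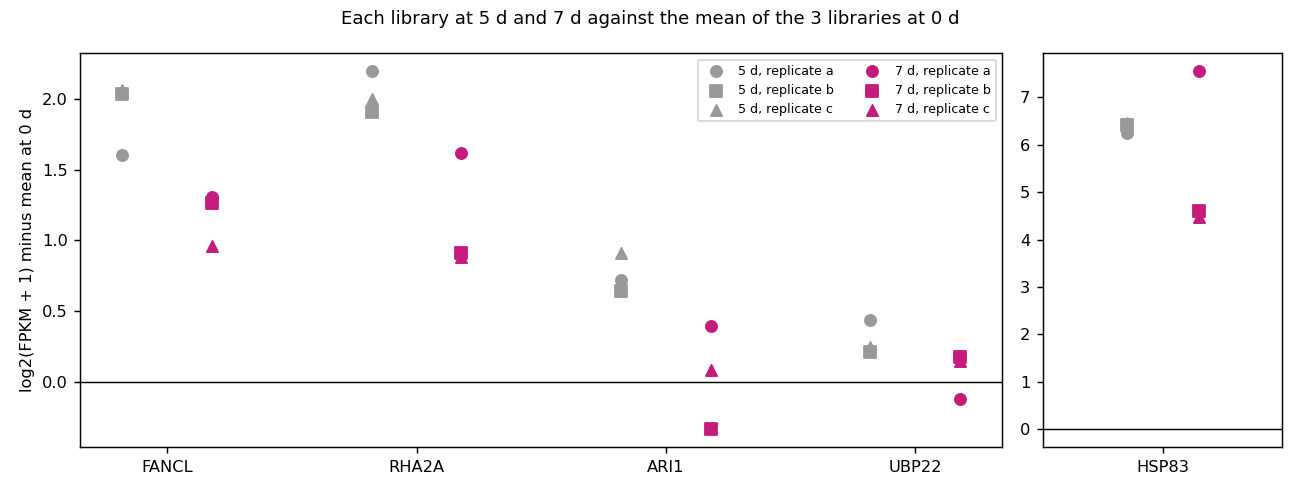
Difference of log2(FPKM + 1) in each library of 5 d (grey) and 7 d (pink) from the mean of the 3 libraries at 0 d, for the 4 genes (left) and HSP83 (right, own scale); circle a, square b, triangle c. Replicate a of 7 d has the highest HSP83 and RHA2A and the lowest UBP22 of its day, and all libraries of 7 d lie below those of 5 d for each of the 4 genes.

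In replicate a of 7 d, RHA2A (17.5 FPKM) and ARI1 (23.8 FPKM) were above b and c of that day, UBP22 (3.60 FPKM) was below them, and FANCL (5.94 FPKM) was close to b (5.75 FPKM). HSP83 in that library was above each library of 5 d, whereas RHA2A was below each of them. The part of this library's difference from b and c in the values of the 4 genes was not tested beyond leaving it out.

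Ordered by mean FPKM, the days ran 5, 3, 1, 7, 0 from high to low for FANCL and RHA2A, and of the neighbours in it, 7 d and 0 d alone did not overlap. ARI1 had the same order, with 5 d clear of 3 d and the other neighbours overlapping. For UBP22 the order was 5, 1, 3, 7, 0, and 3 d and 7 d were the neighbours that did not overlap.

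Across the 15 libraries log2(FPKM + 1) of FANCL and RHA2A correlated at r = 0.90. The points share time points, libraries and the step from 0 d to heat, and within the 12 heated libraries the same pair had r = 0.63. FANCL and ARI1 correlated at 0.70 over all libraries and 0.78 over the heated ones. UBP22 had its closest correlations with RHA2A (0.61) and FANCL (0.60) over all libraries, and 0.37 and 0.23 over the heated ones. Among the heated libraries the correlations between the ligases thus stayed above 0.6, and those of UBP22 were weak.

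For each gene, the 2 annotated genes with the most similar course over the 15 libraries were found by Pearson r among 1151 genes (1152 for RHA2A) that carry both a name and an annotation in the supplement. The supplement lists genes that the study had called changed or tied to heat stress, so similar courses follow in part from that choice. Over all genes tested, 2 had a higher r with FANCL than its first partner below, 7 with RHA2A, 20 with ARI1 and 5 with UBP22. Within the annotated genes, FANCL was most like LOC107417908 (gene10328), annotated as the chloroplast protease homologue FTSH12 (r = 0.985), and LOC107423132 (gene15035), a pentatricopeptide repeat protein (r = 0.979). RHA2A was most like LOC107404500 (gene28045), annotated as TPS6 of the trehalose-phosphate synthase family (r = 0.970), and LOC107421177 (gene13309), a hypothetical protein (r = 0.969). ARI1 and UBP22 had less close partners: an acetyltransferase (LOC107419978, r = 0.857) and an expansin (LOC107427516, r = 0.839) for ARI1, and a WNK-type kinase (LOC107418314, r = 0.878) and an AP2-like transcription factor (LOC107431731, r = 0.834) for UBP22.

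Among 23 other annotated genes of the pathway, rises and falls both occurred. The list was taken from genes that the study listed for ‘HR’, for having changed in libraries of the other cultivar. It was drawn up with earlier results of these data known. RMA1H1, on the list, was also named by the study as higher in ‘HR’ than in ‘HS’. The counts below are therefore not fully independent of the libraries used here. Of the 23, 22 passed the filter. At 1 d 4 rose and 3 fell, with a median log2 fold change of 0.61 over the 22 against 0.04 over all genes. At 3 d 7 rose and 3 fell (median 0.72 against 0.12), at 5 d 8 rose and 3 fell (0.62 against 0.10) and at 7 d 3 rose and 3 fell (0.75 against 0.04). The shares of all genes called, given above, are the background of these counts. Scaling by median ratios brought the median of all genes at 3 d and 5 d to about 0, a shift of just over 0.1, and cut the share of rises among all calls from 54.0% to 41.9% at 3 d and from 50.7% to 41.2% at 5 d; the listed genes then had 7 rises and 4 falls at 3 d and 8 rises and 4 falls at 5 d. Without replicate a of 7 d the listed genes had 3 rises and 2 falls at 7 d (median 0.61 against 0.09 over all genes).

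Of the 22, 9 were called in at least 2 of the 4 comparisons with 0 d, 3 in 1 of them and 10 in none. The 4 comparisons share the libraries of 0 d. The share of all genes called in at least 2 of them was not worked out, so these counts have no background. The E2 enzyme annotated as ubiquitin-conjugating enzyme E2 28 (gene22795) rose at all 4 time points and was by far the most abundant gene named here. Its FPKM was 81.6, 89.7 and 85.4 at 0 d and 1098, 1094 and 1175 at 5 d, a log2 fold change of 3.70 (SE 0.119, adjusted p = 8.66e-08, limma), while the other 2 E2 enzymes of the list were not called at any time and had an unadjusted p under 0.05 in 1 case, at 1 d. Without the libraries of replicate a, however, 1 of these 2 was called lower at 1 d and both were at 5 d and at 7 d. E2 28 was called at 7 d without replicate a of 7 d as well, at 3.46 on the log2 scale (adjusted p = 6.91e-08).

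RMA1H1 (gene27326, LOC107403709), named for a pepper ligase of the endoplasmic reticulum membrane, is another gene that the study placed among its ligases. It had 6.31, 6.47 and 6.89 FPKM at 0 d and 72.1, 41.2 and 39.5 FPKM at 5 d, and at 7 d 70.4, 30.2 and 30.2. RMA1H1 rose at all 4 times, by 2.65, 2.56, 2.73 and 2.45 on the log2 scale (adjusted p of 0.00048 or less in limma), the last being 2.05 (adjusted p = 0.00139) without replicate a of 7 d. Its level was highest in replicate a at 1, 5 and 7 d and lowest in replicate a at 3 d, as was that of RHA2A.

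The other RING and RING-between-RING ligases that were called repeatedly went in both directions. ARI8 (gene12477), of the same family as ARI1, rose at all 4 times, from a mean of 3.77 ± 0.893 FPKM at 0 d to 10.5 ± 0.567 at 5 d (SD, n = 3, log2 fold change 1.29, SE 0.170, adjusted p = 0.000153, limma). RGLG2 (gene10611), in Arabidopsis a RING ligase of hormone and drought responses, fell at all 4 times, from 34.7 ± 2.62 FPKM to 8.16 ± 1.02 at 5 d (log2 fold change -1.97, SE 0.116, adjusted p = 1.68e-06). A RING1-like ligase (gene11906) also fell at all 4 times, from 14.9 ± 0.658 FPKM to 4.29 ± 1.39 at 5 d (log2 fold change -1.62, SE 0.194, adjusted p = 8.57e-05). Without replicate a of 7 d, ARI8 (1.12, adjusted p = 0.00104) and the RING1-like ligase (-1.76, adjusted p = 0.0002) were still called, and RGLG2 was not (-0.77, adjusted p = 0.000877) at that time. The listed ligases of the class of ARI1, RHA2A and FANCL, taken from genes the study listed for ‘HR’, thus did not share one direction. Other members of the class were not examined.

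U-box ligases, which bind E2 enzymes through a fold related to RING, had 3 members called in 2 or more comparisons. PUB11 (gene1042), in Arabidopsis a ligase of drought responses, fell at all 4 times, from 5.14 ± 1.11 FPKM at 0 d to 0.589 ± 0.165 at 5 d (log2 fold change -1.94, SE 0.181, adjusted p = 1.88e-05, limma). PUB18 (gene29143) and PUB19 (gene29543), related ligases that in Arabidopsis restrain drought responses, rose at 3 d and 5 d, and PUB18 also at 1 d. PUB18 had 0.210, 0.343 and 0.173 FPKM at 0 d and 3.17, 5.39 and 4.94 at 5 d (log2 fold change 2.13, SE 0.263, adjusted p = 0.000104), and PUB19 had 0.266, 0.213 and 0.379 at 0 d and 4.41, 6.23 and 5.96 at 5 d (log2 fold change 2.34, SE 0.244, adjusted p = 3.76e-05).
At 7 d the pair divided as HSP83 did, with 41.3 FPKM of PUB18 in replicate a against 0.746 and 1.82 in b and c, and 39.2 FPKM of PUB19 against 1.14 and 1.22, and neither was called, with all libraries or without replicate a of that day. PUB11 was called without it too, at -1.25 on the log2 scale (adjusted p = 0.000754). Among the genes of ubiquitin-like modifiers, SCE1 (gene12188), the conjugating enzyme of SUMO in Arabidopsis, rose at 3 d and 5 d, from 27.9 ± 4.06 FPKM at 0 d to 70.3 ± 6.11 at 5 d (SD, n = 3, log2 fold change 1.31, SE 0.149, adjusted p = 6.41e-05, limma). None of the 4 listed genes of this class was called lower or had an unadjusted p under 0.05 in that direction.

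**Figure D4:**
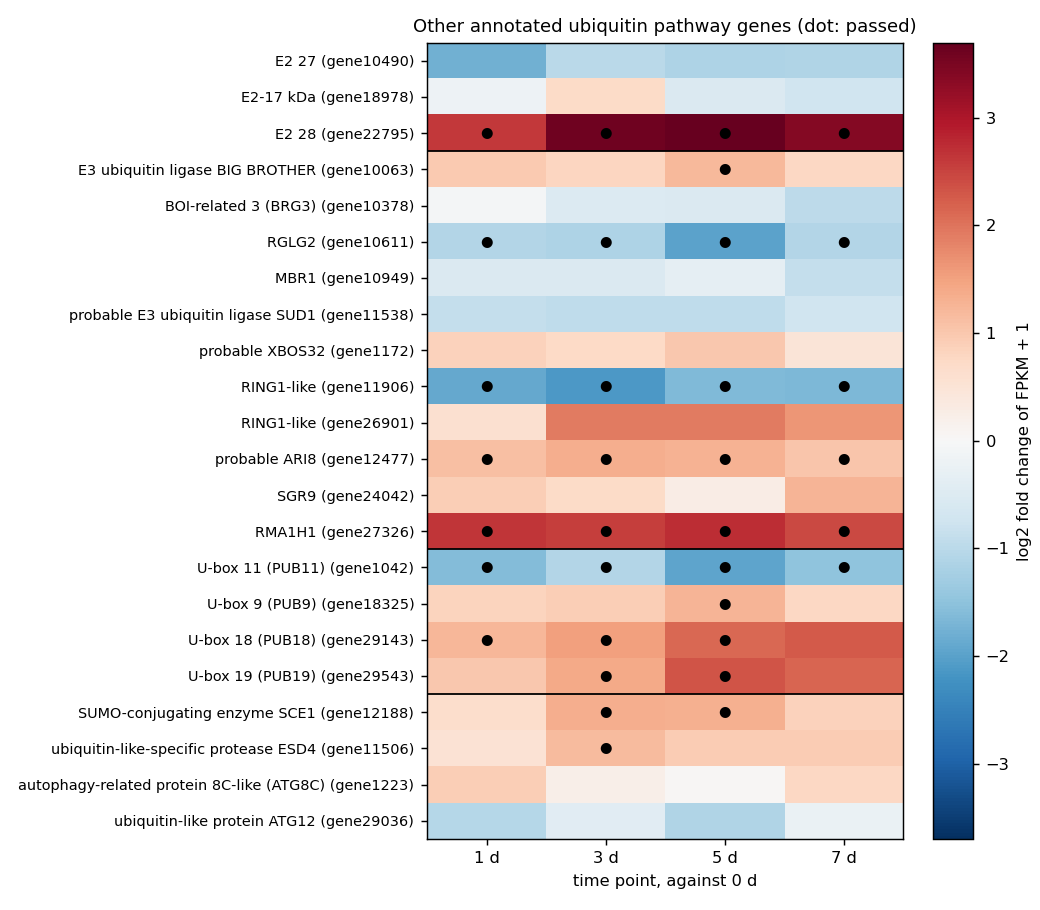
Log2 fold change of FPKM + 1 against 0 d (colour, red higher, blue lower) at 1, 3, 5 and 7 d (columns) for the 22 tested genes of the list (rows), with lines between E2 enzymes, RING or RING-between-RING ligases, U-box ligases and ubiquitin-like modifiers. Dots mark changes that passed both thresholds. E2 28 is the darkest row at 3, 5 and 7 d, and 6 rows have a dot in all 4 columns. The share of all genes called in all 4 was not worked out.

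Rises and falls were also both seen among the genes that the study listed under the KEGG pathway of ubiquitin mediated proteolysis. None of the 4 genes was listed there. The pathway lists of the study, here and for the proteasome below, hold genes it had called changed under heat in that cultivar. They are not all genes of a pathway, so more calls than over all genes follow in part from that choice. Of 31 genes of ubiquitin mediated proteolysis listed for ‘HR’, 6, 7, 11 and 5 rose and 2, 5, 6 and 3 fell at 1, 3, 5 and 7 d, with median log2 fold changes of 0.13, 0.57, 0.85 and -0.04. Over all genes 10.9%, 14.7%, 18.9% and 9.01% were called in either direction, with medians of 0.04, 0.12, 0.10 and 0.04. The 17 genes also listed for ‘HS’ held 6, 7, 9 and 5 of the rises and 2, 5, 6 and 2 of the falls. Of the 14 not listed for ‘HS’, 2 rose at 5 d (14.3%), 1 fell at 7 d (7.1%) and none was called at 1 d or 3 d. The excess of calls over the share of all genes thus lay in the shared genes, which were chosen on libraries used here. The 14 had not been listed for ‘HS’ from the same libraries, so their few calls follow in part from that choice. The contrast between the 17 and the 14 is therefore no independent result. The 21 genes listed for ‘HS’, which were chosen on libraries used here and are no independent evidence of direction, had 7 rises and 2 falls, 9 and 5, 11 and 6, and 5 and 2 (medians 0.65, 0.94, 1.08 and 0.66), and with scaling by median ratios 7 rises and 6 falls at 3 d. At 7 d without its replicate a the ‘HR’ list had 4 rises and 2 falls with a median of 0.06, and the ‘HS’ list 5 rises and 2 falls with a median of 0.64.

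The proteasome is the protease that degrades ubiquitinated proteins, and none of its listed genes was called higher at any time. Of 10 tested genes listed for ‘HR’, 2, 5, 5 and 4 fell at 1, 3, 5 and 7 d in limma, with medians of -0.85, -0.98, -0.96 and -0.93, where 6.12%, 6.78%, 9.30% and 4.88% of all genes were called lower. All of these falls were in the 7 genes also listed for ‘HS’, so they too were chosen on libraries used here. None of the other tested genes of the ‘HR’ list was called, but these had not been listed for ‘HS’ from the same libraries. Of 18 listed for ‘HS’, again chosen on these libraries, 3, 8, 10 and 6 fell (medians -0.92, -1.03, -1.04 and -0.93). With scaling by median ratios the falls were 3, 6, 5 and 4 for ‘HR’ and 5, 13, 13 and 6 for ‘HS’, and without replicate a of 7 d they were 2 and 4 at that time. At an unadjusted p under 0.05 a higher level was found for 1 gene of the ‘HR’ list, at 3 d, and without the libraries of replicate a 1 gene of that list was called higher at 3 d and at 5 d. The lists of both cultivars share 17 genes for ubiquitin mediated proteolysis, 54.8% of the ‘HR’ list and 81.0% of the ‘HS’ list, and 7 for the proteasome, 63.6% and 38.9%.

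**Figure D5:**
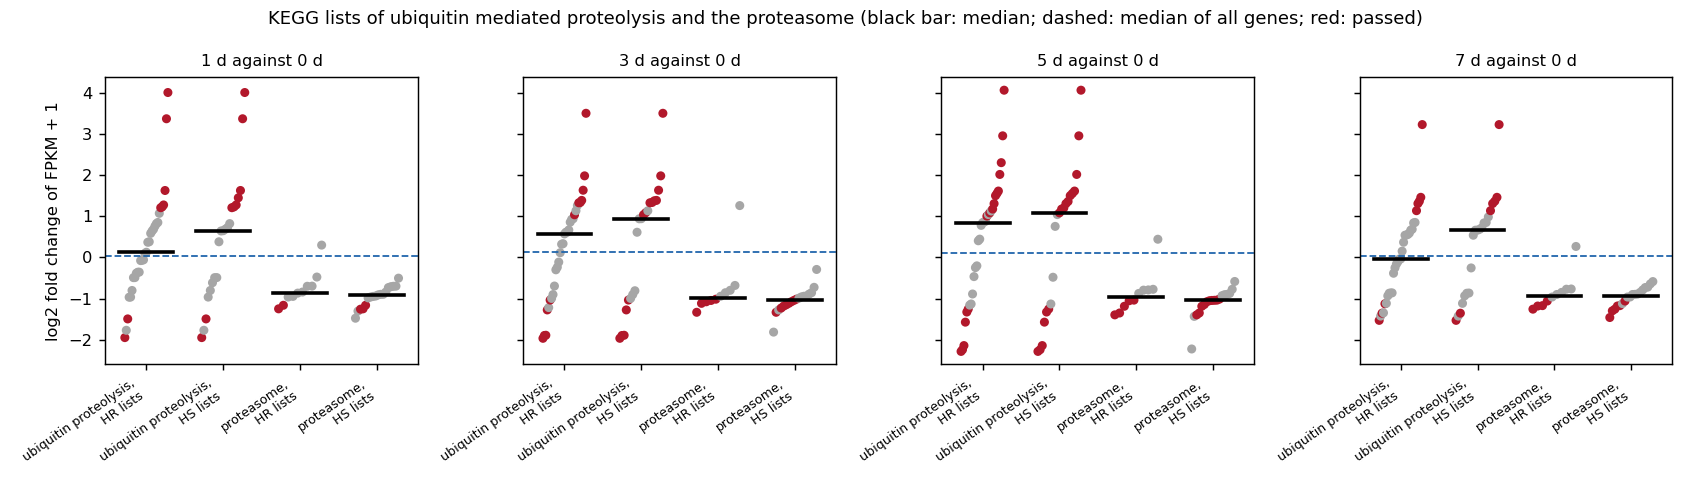
Log2 fold change of FPKM + 1 against 0 d (vertical axis) of single genes in the KEGG lists of ubiquitin mediated proteolysis and the proteasome, by the cultivar for which they were listed. Red points passed both thresholds, black bars are list medians and the dashed line is the median of all genes; proteasome medians lie between -0.85 and -1.04 at every time.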

How the data were processed

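RNA-seq of leaves of ‘HS’ was analysed, 15 libraries at 0, 1, 3, 5 and 7 d of heat with 3 replicates each, grouped by their labels. The authors mapped reads with TopHat 2 and assembled transcripts with Cufflinks. Each library's values were deposited as FPKM per gene. Trimmomatic 0.36 and FastQC are named in the submitters' processing notes, and the genome build is not given in the sources used here. No counts were used. The labels speak of pooled replicate RNA where the methods describe biological replicates (leaves of 6 plants per time point), so p-values may measure technical spread only.

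Genes that reached an FPKM of 1 in at least 3 libraries were tested on log2(FPKM + 1) with limma 3.58.1 (R 4.3.3; lmFit and eBayes, trend on). The model held time point alone and was fitted to the 12 libraries of 0 to 5 d (19550 genes), or all 15 for comparisons with 7 d (19925 genes). Calls needed an adjusted p of at most 0.01 and at least a 2-fold change. The fits were tested on simulated data. Other values were computed in Python 3.11.15 with pandas 2.3.3. Gene identifiers were paired with names through the supplement of the study; for gene6121, the FPKM listed there matched the table in 12 of 12 libraries within 0.05%. Reads shared with near-identical copies, such as other members of the RHA2A and ARIADNE families, could not be told apart in FPKM. The authors' supplementary columns of fold changes and p-values were not used. Of 5 genes chosen, 1 is not reported here. The genes and lists were chosen with earlier results of these data known. Named genes were the 4, RMA1H1 and listed genes called in at least 2 comparisons with 0 d. The 2 genes closest in course to each of the 4, among those annotated in the supplement, were named too. Alternatives covered the pseudocount, the filter, scaling, thresholds, libraries fitted, replicate block and leaving out libraries; the gene lists without replicate a of 7 d were added after seeing the data.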

Additional observations from a re-analysis of the deposited data

How the results depend on the processing

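Of the values of single genes under all alternatives, 522 kept direction and side of the threshold, 15 fell below it, 3 passed it and 12 changed sign. The changes of sign came from leaving out libraries, for values near 0. ARI1 at 7 d against 0 d ranged from -0.13 to 0.24 and UBP22 from -0.012 to 0.16; UBP22 at 3 d against 1 d ranged from -0.069 to 0.059; and at 5 d against 3 d UBP22 ranged from -0.032 to 0.10 and FANCL from -0.029 to 0.21 (log2 fold changes). With libraries left out, the count of the 4 genes called ranged from 0 to 2 at 1, 3 and 7 d against 0 d, and from 0 to 1 at 7 d against 5 d; at 5 d it was 2 each time. Without all libraries of replicate b or of c no gene was called at 1 d (adjusted p from 0.0191 to 0.0301), though the log2 fold changes were 1.54 and 1.37 for FANCL and 1.38 and 1.33 for RHA2A, against 1.49 and 1.31 with all libraries. All genes called at 1 d fell from 2137 to 87 and 63, and were 2691 without replicate a. At 3 d they fell from 2881 to 394 and 357 (3782 without a), at 5 d from 3689 to 1096 and 1135 (4346 without a). At 7 d against 0 d they fell from 1796 to 52 and 24 (2366 without a). The cause was not tested. A fit of the 6 libraries of 0 d and 7 d called 1. Same-letter libraries of different days did not deviate together (r from -0.101 to 0.121). That check sees only deviations that repeat across days, so it cannot show whether b and c are closer to each other within a day. With the replicate block the counts were 2 at each of 1, 3, 5 and 7 d, as without it, while all genes called at 3 d against 1 d fell from 47 to 22. Depth limits are unknown without counts.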
